A study of Mus musculus with 2 samples.

Results

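The genes described here encode the oxidative phosphorylation machinery of the mouse: the subunits of respiratory complex I (NADH dehydrogenase), complex III (cytochrome bc1), complex IV (cytochrome c oxidase) and complex V (ATP synthase). They were chosen by gene symbol alone (mt-Nd, mt-Co, mt-Cytb, mt-Atp, Ndufa, Ndufb, Ndufc, Ndufs and Ndufv with a number, Uqcr, Cox4 to Cox8 and Atp5, without pseudogenes), which gave 94 of the 31253 features in the count matrices. Of these, 13 are encoded in the mitochondrial genome and 81 in the nucleus. The mitochondrial members are 7 genes of complex I, 1 of complex III, 3 of complex IV and 2 of complex V, and the nuclear members are 37 of complex I, 8 of complex III, 18 of complex IV and 18 of complex V. Ndufa4 and Ndufa4l2 were placed with complex I by their symbols, although NDUFA4 protein is known as a part of complex IV.

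RNA came from single cells of the abdominal aorta in a mouse model of abdominal aortic aneurysm, in which porcine pancreatic elastase (PPE) is infused into the vessel to weaken its wall. There was 1 library of C57BL/6J control mice (WT) and 1 library of mice with a global deletion of Gsdme (Gsdme-KO), both given PPE, and no library without PPE was analysed here. The product of Gsdme, gasdermin E, opens pores in the cell membrane once caspase-3 has cleaved it. How many mice each library holds, their age and sex, and the time after PPE are not given in the labels. With 1 library per genotype no test was possible, so genotype cannot be told apart from any other difference between these libraries, and every interval below covers counting error only.

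The respiratory chain passes electrons from NADH and succinate to oxygen and pumps protons, and ATP synthase uses the proton gradient to make ATP. The mitochondrial genome is transcribed as long RNAs that are cut at the tRNAs between the genes, so that most of its messages are made together, while each nuclear subunit has its own promoter. NRF1, GABP (an ETS factor), YY1 and ERRalpha are known regulators of the nuclear genes. Neutrophils are known for few mitochondria and a metabolism based on glycolysis.

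The WT library held 7736 barcodes and the Gsdme-KO library 9034, and filtering left 7619 and 8784 cells. A kept cell held a median of 3835 UMIs (counted molecules) in WT and 4062 in Gsdme-KO. Clustering on 2000 variable genes, none of them a member, gave 16 classes with at least 50 cells in each library, named "X-like" from marker genes. Macrophages and fibroblasts were compared by cluster number, because 1 cluster of each failed a check of leading genes. Fibroblast-like cluster 0 was named from 8 detected fibroblast markers and macrophage-like cluster 9 from 4 macrophage markers. None of these was among the 10 leading genes, which held 1 marker of another class (the pericyte marker Abcc9 and the monocyte marker F10). Fibroblast-like clusters 1 and 2 and macrophage-like clusters 14 and 23 also had no marker of their own class among the leading genes, but none of another class. Macrophage-like cluster 14 was led by Slc39a12, Pde7b and Pde4c. Gsdme stood at 5.53 CPM (UMIs per 1000000 UMIs of the cells) in WT and 2.55 in Gsdme-KO cells (215 and 133 UMIs, ratio 0.461, 95% interval 0.368 to 0.575), so transcripts assigned to it were still present in the library labelled as deleted. By class the ratio was not always below 1: monocyte-like cells had 8 and 26 UMIs (2.85 and 5.85 CPM) and dendritic-like cells 3 and 9 UMIs (2.43 and 5.52 CPM), with intervals that held 1. Which part of the gene is deleted is not given, so UMIs outside that part would not check the label. Between the libraries 73 barcodes were shared, 65 of them kept and 6 of those in the same class.

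Of 80 nuclear symbols, 65 had a promoter (250 bases before to 50 after the start) in the RefSeq table of build GRCm38.p6. The NRF1 motif, sought like the others on both strands, occurred in 15 of the 65 promoters (23.1%), against 5.19% of 27025 promoters of the same length. The ETS letters CCGGAAG occurred in 15 (23.1%, against 9.93%), the YY1 letters AAGATGGCG in 7 (10.8%, against 1.64%) and the ERRalpha letters TCAAGGTCA in 1 (1.54%, against 0.466%). Promoters of members were also richer in G and C, with a median of 57.2% against 52.7%. A match is a description of the letters and not evidence of binding. Windows of members on which results below turn are printed 5′ to 3′ on the strand of the gene, with the motif, or its reverse complement, in capitals: Atp5g3 had the highest ratio of the libraries, Atp5g2 encodes the same mature protein and had a ratio near 1, Cox6a1 had the narrowest range over classes, Uqcrh is in complex III and Ndufb7 was above 1 in every class measured.
Atp5g3, ERRalpha, chr2:73911350-73911398, minus strand: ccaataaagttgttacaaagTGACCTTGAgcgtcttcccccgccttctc
Atp5g2, NRF1, chr15:102671060-102671109, minus strand: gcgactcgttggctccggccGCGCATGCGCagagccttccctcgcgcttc
Cox6a1, NRF1, chr5:115349091-115349140, minus strand: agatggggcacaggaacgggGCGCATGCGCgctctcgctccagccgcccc
Uqcrh, ETS, chr4:116075071-116075100, minus strand: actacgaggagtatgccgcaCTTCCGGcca
Ndufb7, ETS, chr8:83566718-83566757, plus strand: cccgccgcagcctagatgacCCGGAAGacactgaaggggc
The capitals in Atp5g3 lie 52 bases before the start, and this was the only member with the ERRalpha letters. Those in Atp5g2 lie 42 and those in Cox6a1 162 bases before the start. GCGCATGCGC reads the same on both strands, so it was found on each.

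Neutrophil-like cells had the lowest share of UMIs from both parts of the respiratory chain, and SMC-like cells (smooth muscle) the highest share from the mitochondrial part. In neutrophil-like cells the 13 mitochondrial genes made up 0.807% of UMIs in WT and 0.975% in Gsdme-KO, and the nuclear genes 0.266% and 0.270%. In SMC-like cells the mitochondrial genes made up 6.92% and 9.28%, and the nuclear genes 0.757% and 0.717%. Of the SMC-like cells, 28.4% in WT and 43.0% in Gsdme-KO exceeded 10% mitochondrial UMIs, against 1.48% and 3.996% of all kept cells. The part of cell quality in the high mitochondrial share of SMC-like cells was not tested. The other 15 classes lay above neutrophil-like cells for both sums in both libraries. Neutrophil-like cells were also shallow, with medians of 1659 and 1576 UMIs per cell, and the part of depth in their low shares was not tested. Of the 2 neutrophil-like clusters, cluster 10, with Il23a and Siglecf among its leading genes, had the higher mitochondrial share (1.02% and 1.32%), and cluster 11, led by Il1f9, S100a9 and S100a8, the lower (0.527% and 0.662%).

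From low to high mean mitochondrial share, the classes after neutrophil-like cells began with macrophage-like cluster 9 (3.005% in WT and 3.48% in Gsdme-KO), an Arg1 and Spp1 cluster. Fibroblast-like clusters 1, 0 and 2, monocyte-like and dendritic-like cells followed, between 2.76% and 2.99% in WT and between 3.64% and 3.99% in Gsdme-KO. These classes changed places between the libraries, so their order was not stable. Macrophage-like clusters 13 (Lyve1 and Folr2; 3.65% and 4.04%), 7 (Trem2 and Cd72; 3.81% and 4.40%), 14 (3.65% and 5.01%) and 23 (dividing cells with Top2a; 4.42% and 4.74%) came next. T cell-like cells (4.42% and 5.28%) did not differ beyond counting error from macrophage-like cluster 23 in WT. Endothelial-like (5.36% and 6.74%), platelet-like (5.76% and 6.44%) and B cell-like cells (5.68% and 6.94%) ranked next below SMC-like cells (6.92% and 9.28%). The platelet-like and B cell-like intervals overlapped in WT.

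The nuclear sum gave a different order at its upper end. Macrophage-like cluster 23 had 0.731% and 0.772% and endothelial-like cells 0.660% and 0.751%, while B cell-like cells, second by the mitochondrial sum, stood near the middle with 0.527% and 0.545%. Macrophage-like cluster 14 was next to lowest in the nuclear sum (0.368% and 0.430%), although its mitochondrial share was among the higher ones of the macrophages. That cluster also had the highest share of Malat1, an RNA kept in the nucleus, of the 16 classes (0.938% and 0.919% of UMIs), and a low depth (medians of 2048 and 2335 UMIs). Over the 16 classes, the mitochondrial and nuclear shares had a Pearson correlation of 0.80 and a Spearman correlation of 0.73 in WT, and of 0.66 and 0.51 in Gsdme-KO, where the classes of a library share its preparation and both sums share 1 denominator.

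**Figure D1:**
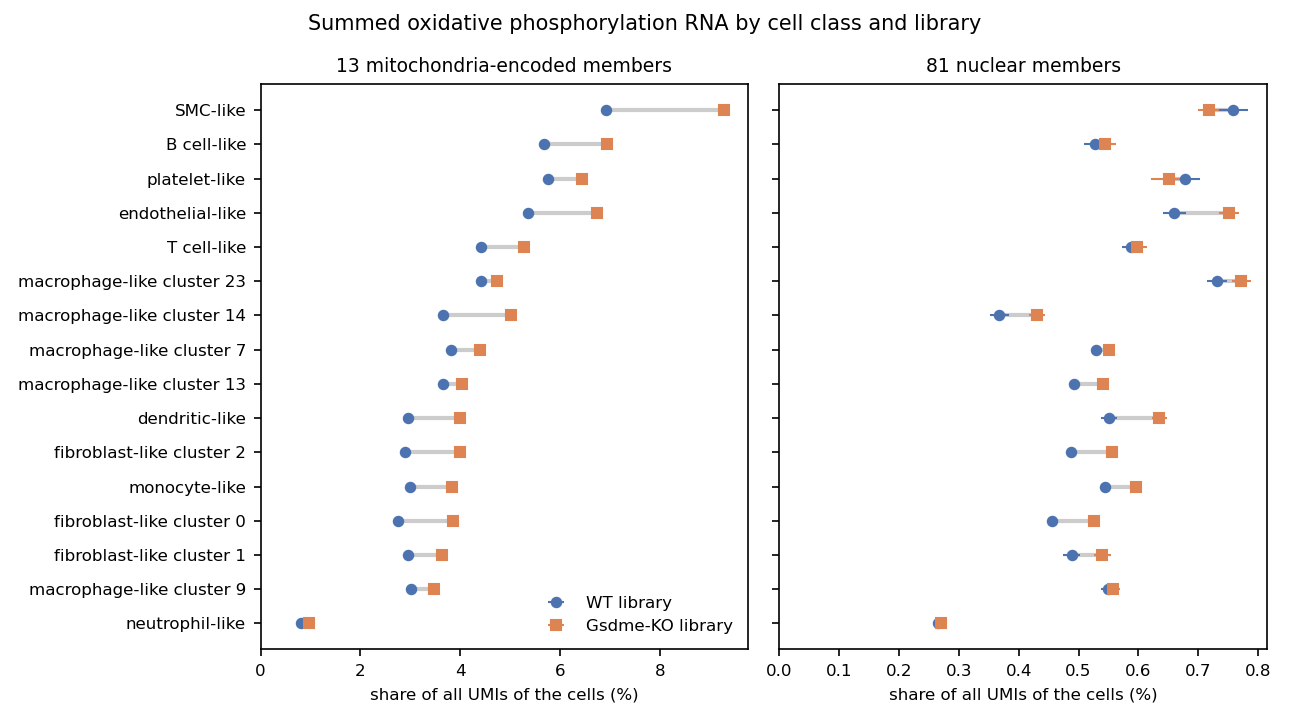
Share of all UMIs of the cells (%, horizontal axis) that came from the 13 mitochondrial genes (left) and the 81 nuclear genes (right) in 16 cell classes (vertical axis), with circles for the WT and squares for the Gsdme-KO library and bars for exact 95% intervals of counting error. Neutrophil-like cells lie lowest in both panels (0.807% and 0.266% in WT), and the Gsdme-KO square lies right of the WT circle in every class on the left but not for SMC-like and platelet-like cells on the right.

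Between the genotypes, the mitochondrial share was higher in the Gsdme-KO library in every one of the 16 classes, and the nuclear share in most of them by a smaller ratio. Over all kept cells the mitochondrial genes made up 3.36% of UMIs in WT (1306181 UMIs) and 4.19% in Gsdme-KO (2184299 UMIs), a ratio of 1.246 (95% interval 1.243 to 1.248). The median over cells was 2.81% in WT and 3.55% in Gsdme-KO. The nuclear genes made up 0.508% and 0.559% (ratio 1.0996, 1.093 to 1.106). For each nuclear UMI there were 6.61 mitochondrial UMIs in the WT library and 7.49 in the Gsdme-KO library, and the ratio of these was 1.133 (1.126 to 1.140).

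By class, the ratio of the mitochondrial share ran from 1.071 in macrophage-like cluster 23 to 1.396 in fibroblast-like cluster 0, with a median of 1.23. The interval lay above 1 in 16 of 16 classes. Fibroblast-like cluster 0 stood at 2.76% in WT and 3.85% in Gsdme-KO, and fibroblast-like cluster 2 at 2.89% and 3.99% (ratio 1.38). Dendritic-like cells stood at 2.95% and 3.99% (ratio 1.35), macrophage-like cluster 14 had a ratio of 1.37 and SMC-like cells 1.34. The smallest ratios were in macrophage-like clusters 23, 13 (1.11), 7 and 9 (both 1.16) and in platelet-like cells (1.12). The platelet-like value rested on cells with high doublet scores: without the highest 5% of scores, which removed 34 of the 213 platelet-like cells of WT and 14 of the 156 of Gsdme-KO, the ratio was 0.987 (0.966 to 1.008).

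For the nuclear share, the interval lay above 1 in 10 of the 16 classes, below 1 in 1 and held 1 in 5. The ratios ran from 0.947 in SMC-like cells to 1.17 in macrophage-like cluster 14, with a median of 1.08. Fibroblast-like clusters 0 and 2 (1.15 and 1.14), dendritic-like (1.15) and endothelial-like cells (1.14) were at the upper end. Neutrophil-like (1.02), T cell-like (1.02), B cell-like (1.03) and platelet-like cells (0.959) and macrophage-like cluster 9 (1.02) were those whose interval held 1. The ratio of mitochondrial to nuclear UMIs was higher in Gsdme-KO in all 16 classes, with an interval above 1 in 14. The exceptions were macrophage-like clusters 13 (1.005) and 23 (1.015), and the highest value was in SMC-like cells (1.42).

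The SMC-like value below 1 did not hold under every setting: it was 1.007 with median-of-ratios factors and 1.033 in cells with at most 10% mitochondrial UMIs. It also depended on 3 WT cells. These 3 of 67 cells held UMIs of Ckm, the creatine kinase of striated muscle, and gave 4.13% of the class's UMIs but 14.9% of its nuclear respiratory UMIs, while no Gsdme-KO cell of the class held Ckm. Once they were left out, the nuclear share stood at 0.672% against 0.717% in Gsdme-KO (ratio 1.067, 1.022 to 1.115), and 11 of 16 classes then had an interval above 1. All 7 striated muscle markers were present in the WT cells of the class, at a summed 2439 CPM. In Gsdme-KO cells 1 of the 7 was present, at 1.06 CPM, and Ckm, Acta1, Myh4, Tnnt3, Tnni2 and Mb were at 0. The class also differed in its SMC markers (summed 6184 CPM in WT and 9260 in Gsdme-KO) and in fibroblast markers (54700 and 33917 CPM), and the part of these in the ratios was not tested.

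Markers of other cell types also differed between the libraries in dendritic-like and endothelial-like cells. In dendritic-like cells all 8 fibroblast markers were present in both libraries, at a summed 493 CPM in WT and 1510 in Gsdme-KO, and all 13 macrophage markers, at 1595 and 1195 CPM. In endothelial-like cells the 8 fibroblast markers summed to 3058 and 1766 CPM and the 13 macrophage markers to 951 and 583 CPM. Of 6 adipocyte markers 3 were present in each library of the endothelial-like class, at 87.1 and 7.89 CPM, with Lep and Cidea at 0 in both. Their part in the ratios of these classes was not tested.

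**Figure D2:**
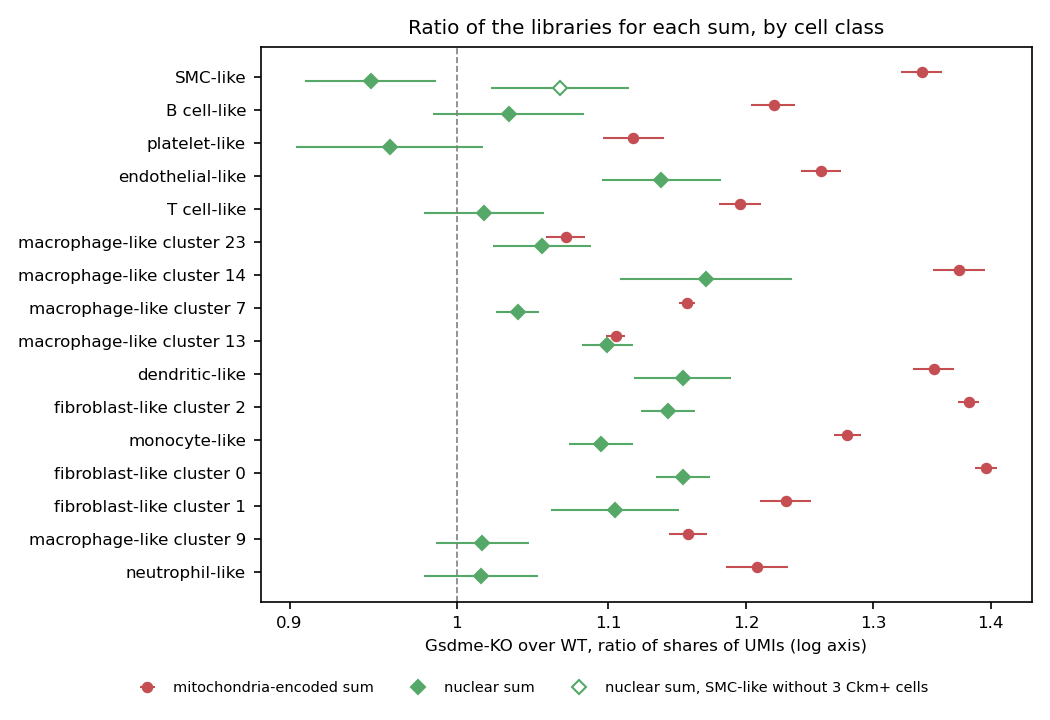
Ratio of the Gsdme-KO over the WT library (horizontal log axis) for the share of UMIs of the mitochondrial genes (circles) and of the nuclear genes (diamonds) in 16 cell classes, with bars for exact 95% intervals of counting error and an open diamond for SMC-like cells without the 3 Ckm-positive WT cells. Every circle lies right of 1 (1.071 to 1.396), each to the right of its class's filled diamond, and the filled diamond of SMC-like cells lies at 0.947.

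Other measures moved between the libraries in the same cells. Cytosolic ribosomal protein genes made up a larger share in Gsdme-KO (ratio 1.137 over all kept cells), with an interval above 1 in 15 of 16 classes, and mitochondrial ribosomal protein genes likewise (1.168), in 11 of 16. Malat1 had a smaller share (0.865), with an interval below 1 in 11 and above 1 in 3 classes. In the Gsdme-KO library 112 barcodes (1.24%) exceeded 25% mitochondrial UMIs and were removed, against 36 (0.465%) in WT. The 13 members are all the mitochondrial genes in the files, so that limit cuts on the mitochondrial sum itself. The part of these differences in the ratios of the respiratory genes was not tested.

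Among the 13 mitochondrial genes, 11 stood higher in Gsdme-KO over all kept cells, and mt-Nd3 and mt-Nd6 did not. mt-Nd2, a subunit of the membrane arm of complex I, had the highest ratio, with 2094 CPM in WT and 3102 in Gsdme-KO (1.481, 1.469 to 1.494). mt-Atp8, the small membrane subunit of ATP synthase, stood at 143 and 208 CPM (1.452, 1.405 to 1.4995). mt-Nd3, another complex I subunit, was lower, with 1136 and 1003 CPM (0.882, 0.871 to 0.894). mt-Nd6, which alone is read from the other strand, had 424 and 557 UMIs (10.9 and 10.7 CPM, ratio 0.978, 0.861 to 1.113).

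The other complex I genes of the mitochondrial genome were mt-Nd1 (3129 CPM in WT and 4083 in Gsdme-KO, ratio 1.305), mt-Nd4l (478 and 527, ratio 1.103), mt-Nd4 (3893 and 4661, ratio 1.197) and mt-Nd5 (1296 and 1628, ratio 1.257). The catalytic subunits of cytochrome c oxidase were close to each other in ratio. mt-Co1 stood at 10038 and 12603 CPM (1.256), mt-Co2 at 3557 and 4500 (1.265) and mt-Co3 at 1319 and 1689 (1.281). mt-Cytb, the only mitochondrial gene of complex III, stood at 3260 and 3810 CPM (1.169). mt-Atp6, the proton channel subunit of ATP synthase, stood at 3247 and 4029 CPM (1.241). Genes in this genome overlap or lie close together (mt-Atp8 and mt-Atp6 by 43 bases, mt-Nd4l and mt-Nd4 by 7, mt-Nd5 and mt-Nd6 by 14), and whether counting used strand is not stated, so values of such neighbours are uncertain.

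Set against the other 12 mitochondrial genes, mt-Nd3 took a smaller part of the mitochondrial UMIs in Gsdme-KO in every class. Its part was 3.38% in WT and 2.40% in Gsdme-KO over all kept cells, and the ratio against the other 12 genes was 0.701 (0.692 to 0.710). By class that ratio lay between 0.646 in fibroblast-like cluster 1 and 0.803 in SMC-like cells, with the interval below 1 in 16 of 16. mt-Nd2 took a larger part in all 16 classes (6.23% and 7.41% over all kept cells), with ratios from 1.05 to 1.39. mt-Cytb took a smaller part in all 16, with the interval below 1 in 14, and mt-Nd4l in 14, with the interval below 1 in 10. The other 9 genes were not on the same side of 1 in every class. In build mm10, mt-Nd3 lies at chrM:9459-9806 (plus strand), 68 bases after mt-Co3 and 70 before mt-Nd4l, and mt-Nd2 at chrM:3914-4951 (plus strand).

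On the CPM scale, mt-Nd3 was lower in Gsdme-KO with an interval below 1 in 10 classes, while the mitochondrial sum was higher there. In macrophage-like cluster 13 it stood at 1199 CPM in WT and 875 in Gsdme-KO (ratio 0.730), and in macrophage-like cluster 23 at 1651 and 1171 (0.709). In fibroblast-like cluster 0 it stood at 983 and 994 CPM, and the interval held 1. SMC-like cells alone had an interval above 1, with 2435 and 2638 CPM (1.083, 1.009 to 1.164). mt-Nd2 had an interval above 1 in all 16 classes, from 2470 and 2908 CPM in macrophage-like cluster 13 (1.18) to 3798 and 6908 CPM in SMC-like cells (1.82). mt-Cytb was lower in Gsdme-KO in macrophage-like clusters 13 (3316 and 3045 CPM, ratio 0.918) and 23 (4208 and 3943, ratio 0.937) and higher, with an interval above 1, in 12 classes.

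**Figure D3:**
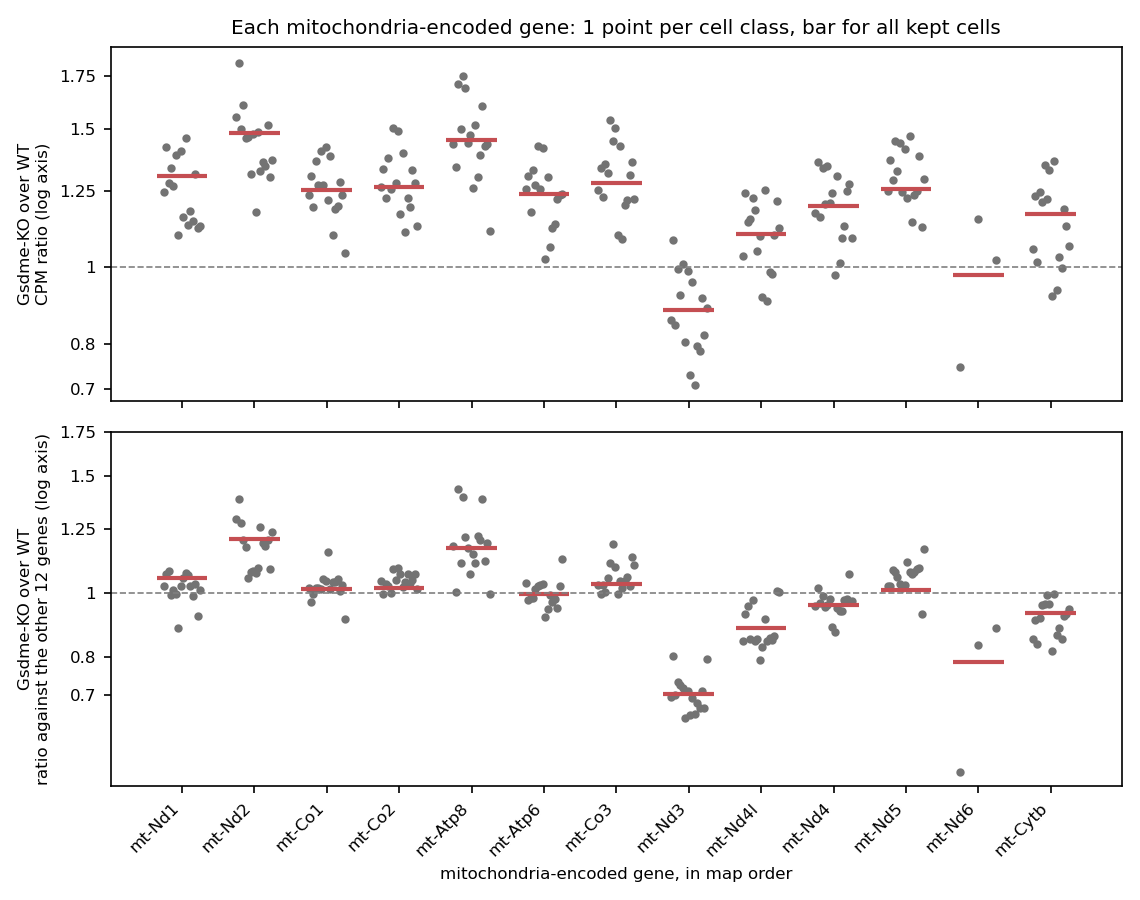
Ratio of the Gsdme-KO over the WT library (vertical log axes) of each of the 13 mitochondrial genes, in the order of the mitochondrial map (horizontal axis), as CPM (top) and against the other 12 genes (bottom); points are cell classes in which the gene passed the level filter and bars are all kept cells. In the lower panel every mt-Nd3 point lies between 0.646 and 0.803 and every mt-Nd2 point above 1; mt-Nd6 has points in 3 classes only.

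The nuclear members differed by complex and by subunit. Over all kept cells, nuclear complex V genes made up 0.179% of UMIs in WT and 0.203% in Gsdme-KO (ratio 1.135), complex I genes 0.151% and 0.169% (1.121), complex IV genes 0.130% and 0.138% (1.065) and complex III genes 0.0485% and 0.0482% (0.995, 0.976 to 1.014). Complex III had the lowest ratio of the 4 complexes in 13 of 16 classes and complex V the highest in 10. Complex V was above complex III in 15 of 16 classes. The mitochondrial gene of complex III, mt-Cytb, had a ratio of 1.169, and the mitochondrial sums of complexes I (1.247), IV (1.260) and V (1.2504) were higher. The single complex I genes mt-Nd3, mt-Nd6 and mt-Nd4l had lower ratios than mt-Cytb, so its value is not particular to complex III.

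A gene was called measured where it had at least 100 UMIs over both libraries and a mean of at least 10 CPM, and past the fold where its ratio was at least 25% above 1, or 0.8 or lower. Over all kept cells, 7 of 13 mitochondrial members (53.8%) were past the fold upward, against 12.4% of the 8710 measured genes, and 0 downward, against 16.1%. Of 71 measured nuclear members, 13 (18.3%) were past the fold upward and 0 downward. The median log2 ratio was 0.33 for the mitochondrial and 0.11 for the nuclear members, against -0.07 for all genes. The level filter left out 10 nuclear members: Cox4i2, Cox6a2, Cox6b2, Cox7a1, Cox7b2, Cox8b, Cox8c, Ndufa4l2, Ndufa11 and 1 of the 2 features named Atp5o.

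Summed over the 16 classes, 94 of 195 measured values of mitochondrial members (48.2%) were past the fold upward and 5 (2.56%) downward, and 178 of 794 values of nuclear members (22.4%) upward and 48 (6.05%) downward. For all genes the shares were 12% upward and 19.3% downward. The median log2 ratio of the mitochondrial members was above that of all genes in 16 classes and that of the nuclear members in 14. The classes with the most nuclear members past the fold upward were fibroblast-like cluster 0 (21 of 70, against 11.4% of all genes; 3 downward, against 30.1%), dendritic-like (20 of 54, against 14.7%), fibroblast-like cluster 2 (18 of 70, against 10.9%) and endothelial-like cells (18 of 48, against 14.1%). Macrophage-like cluster 7 gave 9 upward and 3 downward of 70 (all genes 7.18% and 10.3%), cluster 13 gave 16 and 2 of 70 (9.15% and 15.2%), cluster 9 gave 6 and 5 of 60 (9.61% and 15%) and the dividing cluster 23 gave 14 and 5 of 54 (14.9% and 22.3%). Monocyte-like cells gave 15 and 1 of 67 (12.7% and 16.7%) and T cell-like cells 8 and 5 of 44 (11.5% and 16.2%). In neutrophil-like cells 7 of 48 were past the fold upward and 5 downward, close to the shares of all genes upward (12.1%) and with fewer downward (16%). In platelet-like cells 0 of 14 were past the fold upward and 3 downward, where all genes gave 16.3% and 21.8%. The SMC-like counts were 6 upward and 9 downward of 41 (all genes 18.9% and 20.1%), with the 3 Ckm-positive cells included. With factors that centre most genes (TMM), the nuclear counts over the 16 classes were 251 upward and 30 downward, where all genes gave 16.9% upward and 13.2% downward in place of 12% and 19.3%.

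In complex V, 4 genes had the highest ratios. Atp5g3, one of the genes for the c subunit of the rotor ring, stood at 157 CPM in WT and 240 in Gsdme-KO (1.533, 1.487 to 1.581). Its ratio was above 1 in 15 of the 15 classes in which it was measured, from 1.05 in neutrophil-like cells (45.1 and 47.4 CPM) to 1.62 in fibroblast-like cluster 0 (145 and 235 CPM). Atp5d, the delta subunit of the central stalk, stood at 48.6 and 72.5 CPM (1.492) and was above 1 in 12 of 13 classes. The measured Atp5o feature, for the OSCP subunit of the peripheral stalk, stood at 88.2 and 130 CPM (1.470) and was above 1 in 15 of 15 classes. Atp5g1, another c subunit gene, stood at 65.0 and 90.0 CPM (1.385).

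The remaining c subunit gene, Atp5g2, stood at 224 CPM in WT and 228 in Gsdme-KO (1.016, 0.988 to 1.044). The c subunit genes encode the same mature protein, and their RNAs differed in ratio. Protein was not measured. Atp5a1 and Atp5b, for the catalytic head, stood at or under 1: Atp5a1 at 241 and 234 CPM (0.972), below 1 in 12 of 16 classes, and Atp5b with a median of 0.978 over 15 classes. Under TMM and median-of-ratios factors the Atp5a1 ratio was above 1 (1.027 and 1.021). The lowest complex V ratio over all kept cells was that of Atp5j2.

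In complex I, the highest ratios were in accessory subunits of the membrane arm and in 1 subunit of the NADH-binding arm. Ndufb10 stood at 26.6 CPM in WT and 39.1 in Gsdme-KO (1.470) and was above 1 in 8 of 8 classes. Ndufb9 stood at 23.7 and 33.7 CPM (1.424) and Ndufb5 at 36.3 and 51.0 CPM (1.407). Ndufv2, an iron-sulphur subunit of the NADH-binding arm, stood at 52.6 and 77.0 CPM (1.464) and was above 1 in 13 of 13 classes, with an interval above 1 in 9. Ndufs1, another core iron-sulphur subunit, was lower in Gsdme-KO, at 32.0 and 27.6 CPM (0.863), and below 1 in 7 of 7 classes, though the interval was below 1 in 1 of them. Subunits of 1 complex thus had ratios on both sides of 1.

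In complex III, the ratios were lower. Uqcrc1, a core subunit, stood at 30.9 CPM in WT and 25.9 in Gsdme-KO (0.838, 0.775 to 0.907), and Uqcr10, a small subunit, at 20.97 and 17.7 (0.844, 0.767 to 0.928). Uqcr10 was below 1 in 5 of 5 classes measured. The median log2 ratio of all genes was itself negative in every class (-0.138 to -0.018). Uqcrc2, the other core subunit, stood at 63.4 and 58.4 CPM (0.922) and was below 1 in 12 of 13 classes. Uqcrq stood at 67.0 and 60.8 CPM (0.907) and was below 1 in 10 of 13. Its 3 classes above 1 were the fibroblast-like clusters. Uqcrfs1, the Rieske iron-sulphur protein, had a ratio of 1.118 and Uqcr11 one of 1.130, and Uqcrh (1.018) and Uqcrb (1.036) had intervals that held 1.

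In complex IV, Cox4i1, the common form of subunit 4, stood at 121 CPM in WT and 150 in Gsdme-KO (1.232, the highest ratio of the complex) and was above 1 in 13 of 15 classes. Cox6a1 stood at 126 and 148 CPM (1.178) and was above 1 in 11 of 16. In neutrophil-like cells Cox4i1 stood at 58.9 and 89.8 CPM (1.52, 1.22 to 1.91), in macrophage-like cluster 7 at 146 and 189 (1.296) and in fibroblast-like cluster 2 at 97.6 and 138 (1.41). Cox7a2l stood at 178 and 172 CPM (0.968). Of 54 nuclear members measured in at least 8 classes, 40 were above 1 in most of them, 5 in every one (Atp5g3, Ndufb7, Atp5o, Ndufb10 and Ndufv2) and 0 were below 1 in every one. These counts, and the counts of classes above or below 1 given for single members, are not set beside the same shares over all genes. They therefore do not show whether the members were unusual.

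**Figure D4:**
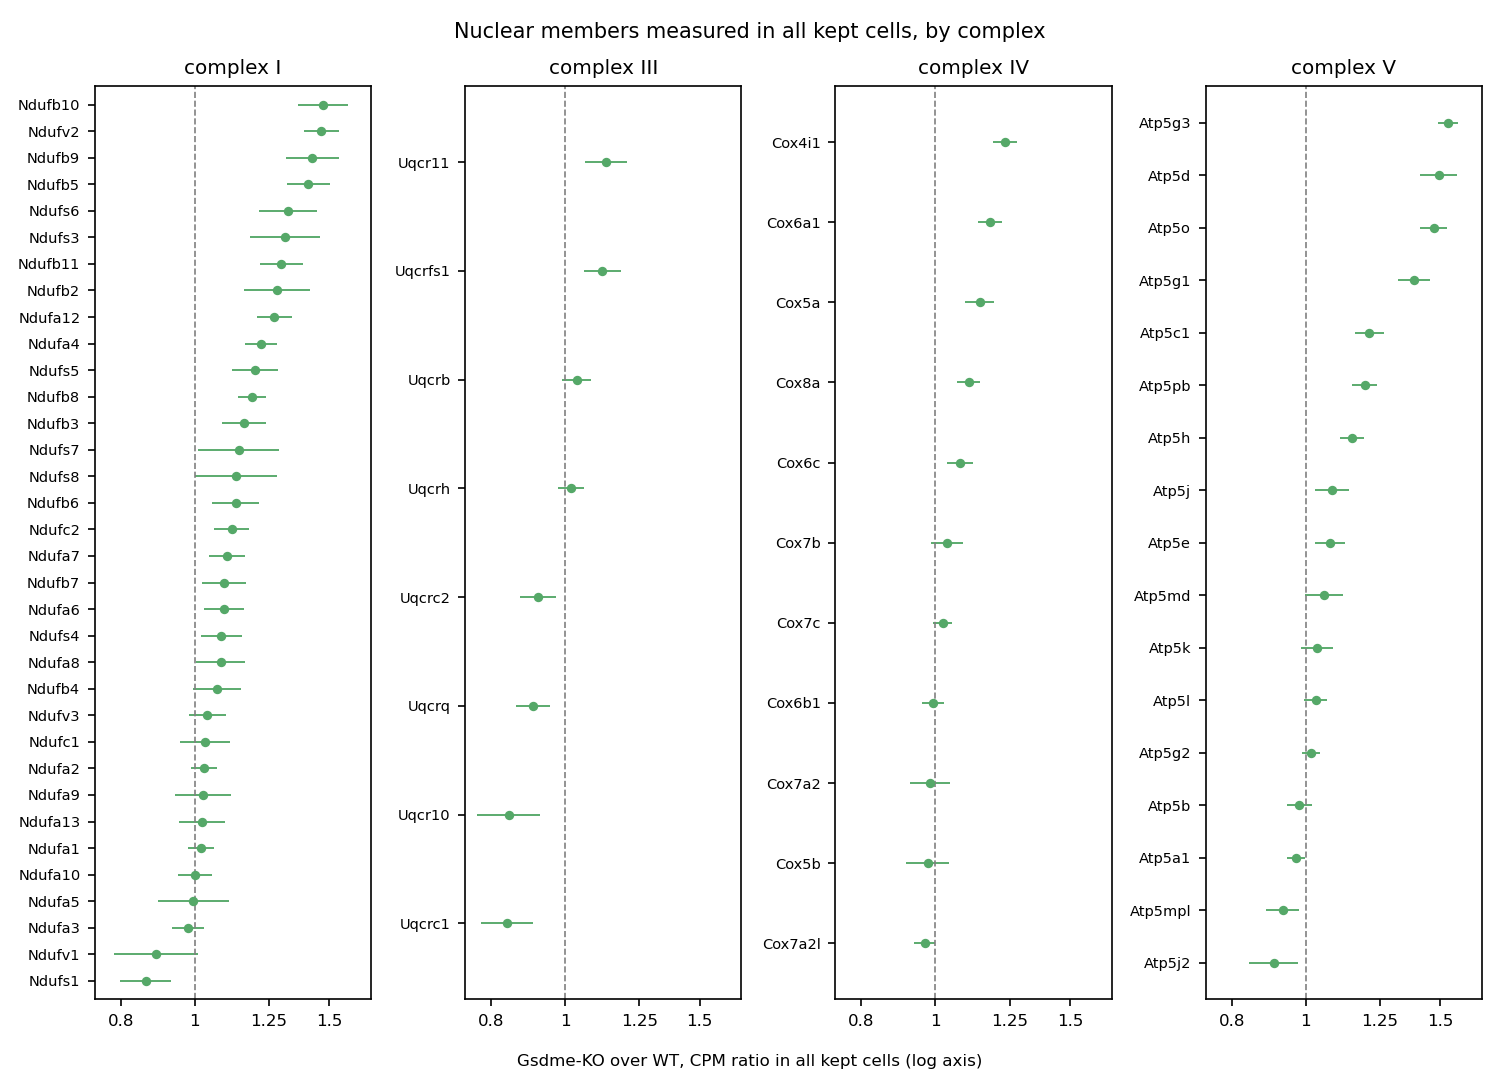
CPM ratio of the Gsdme-KO over the WT library (horizontal log axes) for 70 of the 71 nuclear members measured in all kept cells, by complex, with bars for exact 95% intervals of counting error. Complexes I and V spread from below 1 to 1.47 and 1.53, whereas in complex III Uqcr11 is highest at 1.130 and Uqcrc1 lowest at 0.838.

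The members past the fold in single classes were ranked by the interval end nearest 1, and those ranked first were mostly mitochondrial upward and mostly nuclear downward. This ranking favours genes with many UMIs, such as the mitochondrial ones, so the upward majority is not a result about the 2 parts. mt-Nd2 was among the first 3 upward in 13 classes, with an example in dendritic-like cells of 1546 CPM in WT and 2484 in Gsdme-KO (1.61). Among nuclear members, Atp5d in fibroblast-like cluster 2 stood at 46.8 and 84.6 CPM (1.81, 1.53 to 2.14), and Atp5c1, the gamma shaft of ATP synthase, in dendritic-like cells at 89.7 and 160 CPM (1.78, 1.42 to 2.25). Atp5g1 in T cell-like cells stood at 44.6 and 88.9 CPM (1.99, 1.35 to 2.96).

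Ndufa4 differed in direction between classes. In endothelial-like cells it stood at 71.8 CPM in WT and 130 in Gsdme-KO (1.81, 1.29 to 2.59). In platelet-like cells it stood at 317 and 174 CPM (0.550, 0.388 to 0.769), and in T cell-like cells at 101 and 72.3 (0.713, 0.510 to 0.990). These differences between classes were not tested. Ndufa3, an accessory subunit of complex I, was also lower in platelet-like cells, at 374 and 207 CPM (0.553).

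Members with lower levels in single classes included several of complex III, although over the 16 classes complex III gave 17.2% of its values downward against 19.3% of all genes. In T cell-like cells Uqcrb stood at 89.3 CPM in WT and 49.8 in Gsdme-KO (0.558) and Uqcrq at 74.1 and 41.5 (0.560). In macrophage-like cluster 7 Uqcrc1 stood at 34.8 and 22.7 (0.653) and Uqcr10 at 22.9 and 15.9 (0.695), and in endothelial-like cells Uqcrq stood at 131 and 87.8 (0.668). In neutrophil-like cells Ndufv3 stood at 29.2 and 14.7 CPM (0.504, 0.320 to 0.778) and Uqcrb at 27.1 and 17.0 (0.629). In SMC-like cells Cox6b1 stood at 272 and 180 CPM (0.664), with the 3 Ckm-positive cells included.

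Across classes, 10 nuclear members were measured in all 16, which permits a comparison of how evenly each was expressed. Averaged over both libraries, Cox6c had the widest range, from 39.9 CPM in neutrophil-like to 252 in platelet-like cells (2.66 on the log2 scale). Cox7c ranged from 56.8 CPM in neutrophil-like to 340 in SMC-like cells (2.58) and Atp5g2 from 79.7 in neutrophil-like cells to 361 in macrophage-like cluster 23 (2.18). Cox7a2l (2.02), Cox6b1 (1.85) and Ndufa2 followed, each lowest in neutrophil-like cells. The narrowest were Cox6a1, from 92.1 CPM in macrophage-like cluster 14 to 215 in endothelial-like cells (1.22), and Cox8a, followed by Atp5l (1.56) and Atp5a1 (1.68). For Cox6a1, Cox8a and Atp5l the lowest class was macrophage-like cluster 14 rather than neutrophil-like cells.

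The tissue-dependent and oxygen-dependent isoforms were low, with at most 184 UMIs of any of them in a library. Ndufa4l2, known as a gene induced by low oxygen, stood at 22.3 CPM in WT and 27.4 in Gsdme-KO SMC-like cells (10 and 26 UMIs) and at 13.8 and 16.8 CPM in endothelial-like cells (9 and 17 UMIs). Within the SMC-like class, 4 of the 10 WT and 10 of the 26 Gsdme-KO UMIs lay in cells with Myh11, a smooth muscle gene, and 4 and 7 in cells with Rgs5, a pericyte gene. Fibroblast-like cluster 0 had 7.80 and 8.32 CPM (32 and 69 UMIs). Fibroblast-like cluster 1 had 22.5 CPM in WT and 3.18 in Gsdme-KO (21 and 3 UMIs, ratio 0.141, 0.0269 to 0.472). Neutrophil-like, monocyte-like, B cell-like and platelet-like cells and macrophage-like clusters 9, 14 and 23 had 0 UMIs in both libraries.

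Cox4i2, the oxygen-sensitive form of subunit 4, had 8 UMIs in WT and 15 in Gsdme-KO in all, of which 3 and 7 lay in SMC-like cells (6.68 and 7.39 CPM, with intervals of 1.38 to 19.5 and 2.97 to 15.2). Cox6a2, the form of subunit 6a known from heart and skeletal muscle, had its highest level apart from SMC-like cells in dendritic-like cells, at 15.4 CPM in WT and 18.4 in Gsdme-KO (19 and 30 UMIs). All 19 WT and 29 of the 30 Gsdme-KO UMIs lay in cells with Siglech, a gene of plasmacytoid dendritic cells. In SMC-like cells it had 9 WT UMIs, all in the 3 Ckm-positive cells, and 0 in Gsdme-KO. Cox6b2, known from testis, stood at 23.0 and 43.6 CPM in platelet-like (10 and 12 UMIs) and 20.1 and 15.8 CPM in SMC-like cells (9 and 15 UMIs).

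Cox7a1, the muscle form of subunit 7a, was found at 3.20 and 3.81 CPM in macrophage-like cluster 7, 3.61 and 3.90 in cluster 13 and 5.06 and 4.59 in cluster 9, and at 0 and 0.121 CPM in fibroblast-like cluster 0. Cox8b had 1 UMI in WT and 9 in Gsdme-KO, Cox7b2 1 and 0, and Cox8c none in either library. Among common partners, Cox7a2 stood at 48.1 and 47.2 CPM, Cox6b1 at 154 and 153 and Ndufa4 at 67.6 and 82.5 over all kept cells. The isoform counts were too low for most classes to show a difference between the libraries at this depth.

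**Figure D5:**
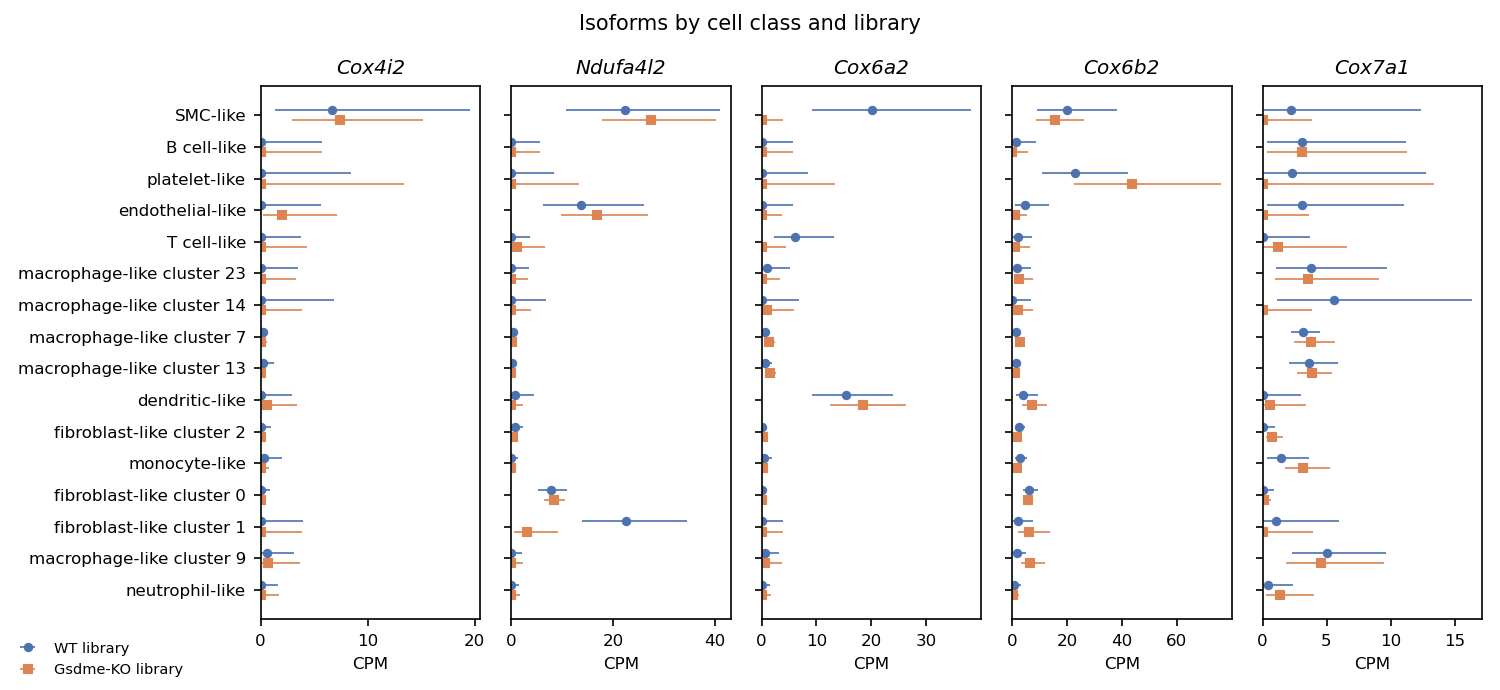
Levels (CPM, horizontal axes, 1 scale per gene) of 5 tissue-dependent isoforms in 16 cell classes, with circles for the WT and squares for the Gsdme-KO library and bars for exact 95% intervals of counting error. Ndufa4l2 is highest in SMC-like cells (22.3 and 27.4 CPM) and in WT fibroblast-like cluster 1 (22.5 CPM), and Cox6a2 stands out in dendritic-like cells and in the WT cells of the SMC-like class.

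Genes that work with the respiratory chain were counted from lists over all kept cells, where 12.4% of all measured genes were past the fold upward and 16.1% downward. Of complex II, encoded wholly in the nucleus, 4 of 4 genes were measured and 0 were past the fold; Sdha stood at 74.2 CPM in WT and 68.6 in Gsdme-KO (0.924) and Sdhc at 53.7 and 61.3 (1.142). Among 10 electron carriers and exchange proteins, Cycs (cytochrome c) stood at 42.5 and 56.7 CPM (1.332) and Slc25a5, an ADP and ATP carrier, at 185 and 216 (1.169). Ucp2, an uncoupling protein of leukocytes, stood at 1044 and 809 CPM (0.775). Of 39 assembly factors 21 were measured, with 6 past the fold upward and 2 downward. Ndufaf4, an assembly factor of complex I, stood at 16.6 and 23.2 CPM (1.3996), and the copper chaperone Cox17 at 72.8 and 58.1 (0.798).

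Against the same 12.4% and 16.1% of all genes, other lists gave the following. Of 22 genes of mitochondrial transcription and RNA stability 12 were measured, 0 past the fold upward and 1 downward: Lrpprc, which stabilises mitochondrial messages, stood at 44.7 CPM in WT and 33.6 in Gsdme-KO (0.753). Tfam, the main mitochondrial transcription factor, stood at 24.8 and 24.2 CPM (0.977). Of 11 regulators of nuclear respiratory genes 9 were measured and 0 were past the fold. Nrf1 stood at 33.0 and 27.6 CPM (0.834), Gabpb1 at 79.9 and 67.7 (0.847), Hif1a at 321 and 264 (0.825) and Esrra, which encodes ERRalpha, at 16.4 and 19.0 (1.159). Of 16 genes of the tricarboxylic acid cycle, all measured, 1 was past the fold upward (Idh3a, 23.2 and 30.5 CPM, ratio 1.312) and 0 downward. Mitochondrial ribosomal proteins gave 20 upward and 0 downward of 57 measured, and cytosolic ribosomal proteins 18 and 0 of 80.

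Summed over the 16 classes, the same lists gave other shares past the fold upward and downward, against 12% and 19.3% of all genes. Mitochondrial ribosomal proteins gave 33.7% and 2.79%, and cytosolic ribosomal proteins 21.8% and 1.52%, next to 22.4% and 6.05% of the nuclear respiratory genes. Within the latter, complex I gave 27.2% and 6.73%, complex IV 17.7% and 3.16%, complex V 25.3% and 2.95%, and complex III 5.75% and 17.2%. Genes of mitochondrial transcription and RNA stability gave 6.58% and 22.4%, and those of the tricarboxylic acid cycle 6.34% and 9.86%. Electron carriers and exchange proteins gave 11.9% and 12.8%, and assembly factors 17.6% and 11.1%. Regulators of nuclear respiratory genes gave 8.51% and 17.0%, and complex II 5.26% and 10.5%. The members of complexes I, IV and V and both ribosomal lists thus had more values upward and fewer downward than all genes. Complex III had fewer upward, and its downward share was near that of all genes. With TMM factors all genes gave 13.2% downward, and the share of complex III under those factors is not given here.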

How the data were processed

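Per the labels' protocols, PPE-treated abdominal aorta was dissociated with DNase I and collagenase I, freed of red cells and profiled on BD Rhapsody. The deposited values are whole-number counts per gene and barcode, not normalised by the authors; their being UMIs is inferred from the platform. Tools named in the submitters' processing notes are STARsolo and CASAVA 1.8, with genome mm10, and the annotation and the use of strand in counting are not given in the sources used here. Total counts of the deposited matrices were 38988898 (WT) and 52532964 (Gsdme-KO) UMIs. Positions came from GENCODE M21, which held 31184 of the 31253 feature IDs.

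Cells with at least 500 UMIs, 250 genes and at most 25% mitochondrial UMIs were kept. Scrublet marked 0 cells in either library and so did not work, and doublets remain. Counts scaled to 10000 per cell were log-transformed and clustered without batch integration (scanpy 1.11.5, 2000 variable genes without members, 30 components, 15 neighbours, Leiden method of igraph 0.11.9 at resolution 1, 27 clusters). A cluster took a name only with 3 or more detected markers of that class. Clusters 3, 6, 15 and 19 were shallow or short of markers and stayed unnamed, as did 24 and 25, with 2 or more markers of another class and none of their own among the 10 leading genes. UMIs were summed per class and library. Ratios carry exact conditional binomial 95% intervals, and shares and CPM exact Poisson ones (scipy 1.17.1). The ratio of mitochondrial to nuclear UMIs instead carries a 95% interval from a normal approximation on the log scale. The intervals of gene ratios were tested on simulated Poisson counts. These hold counting error only, so variation between cells or libraries was not part of that check. No test between genotypes was run.

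Named were all mitochondrial members, fixed isoforms with their partners, up to 3 members each way per class by the interval end nearest 1, the 6 widest and 4 narrowest ranges over classes, Gsdme, and up to 3 most abundant genes per list. Other members given over all kept cells, and Cycs, Ndufaf4, Tfam, Nrf1, Gabpb1, Esrra and Idh3a, were chosen after their values were seen. The members and lists were chosen with earlier results of these data known. Alternatives (18 settings) covered the filters, doublet scores, clustering, scaling, thinning and fold; leaving out shared barcodes and leaving out Ckm-positive cells were added after seeing the data. The mitochondrial rRNA list (2 symbols) matched 0 features. The values of 1 nuclear member of complex I are not reported here by name; it remains in the sums and counts.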

Additional observations from a re-analysis of the deposited data

Results flagged for a closer look

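Several values were listed because their intervals lay on opposite sides of 1 in 2 cell classes; the differences between classes were not tested. The nuclear sum had a ratio of 0.947 in SMC-like cells and 1.17 in macrophage-like cluster 14. mt-Nd3 had a CPM ratio of 0.709 in macrophage-like cluster 23 and 1.08 in SMC-like cells, and mt-Nd4 one of 0.978 in macrophage-like cluster 13 and 1.36 in SMC-like cells. mt-Nd4l had 0.916 in macrophage-like cluster 13 and 1.253 in macrophage-like cluster 14, and mt-Cytb 0.918 and 1.37 in the same clusters.

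Barcodes over the limit of 25% mitochondrial UMIs, which entered no comparison, made up 1.24% of the Gsdme-KO library (112 barcodes, median of 40.5% mitochondrial UMIs) against 0.465% of the WT control library (36 barcodes, median of 36.2%).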

How the results depend on the processing

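No paired analysis was possible because each genotype has 1 library, and no replicate could be left out. The mitochondrial ratio over all kept cells (1.246) was 1.194 with at most 10% mitochondrial UMIs, 1.276 with no such limit, 1.316 with TMM factors, 1.309 with median-of-ratios factors, 1.256 over totals without mitochondrial UMIs, 1.278 as a mean over cells and 1.282 with cells thinned to 1000 UMIs. The nuclear ratio (1.0996) was 1.162, 1.155, 1.109, 1.084 and 1.081 under the last 5 of these. Both kept their direction in every setting run. TMM moved the log2 ratios of all genes by 0.19 in fibroblast-like cluster 0 and 0.15 in cluster 2, and by less than 0.1 elsewhere.

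The mitochondrial sum was higher in Gsdme-KO in all classes formed (12 to 16), except that 15 of 16 remained without the highest doublet scores, where platelet-like cells gave 0.9865; the nuclear count of 10 classes ranged from 7 to 14. Counts past the fold over classes moved as follows. The 94 mitochondrial values upward became 12 at a fold of 1.5; the 5 downward became 3 at resolution 0.5, 2 with either scaling factor, 0 at a fold of 1.5 and 8 without a filter. The 178 nuclear values upward became 45 thinned, 42 at a fold of 1.5 and 307 without a filter; the 48 downward became 31 with variable genes from all genes, 30 with TMM, 29 with median-of-ratios, 15 thinned, 11 at a fold of 1.5 and 170 without a filter. Thinning and the higher fold leave fewer genes past the limits by construction, and the cause of the other moves was not tested. All genes gave 16.9% upward and 13.2% downward with TMM and 16.4% and 13.6% with median-of-ratios factors. For the other settings the share of all genes is not given here, so those counts cannot be read against it.

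Some single values changed side. The nuclear ratio of SMC-like cells was 1.033 with at most 10% mitochondrial UMIs, 1.067 with variable genes from all genes, 1.007 with median-of-ratios and 1.067 without Ckm-positive cells, and that of endothelial-like cells 0.9972 as a mean over cells. Atp5a1 over all kept cells was 1.027 with TMM, 1.021 with median-of-ratios and 1.011 as a mean over cells. mt-Nd3 in SMC-like cells was 0.9502 with at most 10% mitochondrial UMIs, 0.9944 as a mean over cells and 0.9061 thinned, and in endothelial-like cells 1.117 at resolution 0.5. Thinned, Uqcrh in B cell-like cells was 1.248 and Uqcrq in endothelial-like cells 1.322. The isoforms had too few UMIs in most classes for a difference between the libraries to be detectable at this depth.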

Other observations

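In 3 of the 4 large unnamed clusters, all shallow (medians from 690 to 1135 UMIs), the summed mitochondrial share was higher in Gsdme-KO. Clusters 3, 6 and 15 had ratios of 1.335, 1.280 and 1.349. Cluster 19, with Csmd1 and Magi2 among its leading genes, had 0.972 (0.941 to 1.003), and its mitochondrial UMIs per nuclear respiratory UMI were lower in Gsdme-KO (ratio 0.860, 0.769 to 0.960). The median share over the cells of cluster 19 was nevertheless higher in Gsdme-KO, at 0.451% in WT and 0.668% in Gsdme-KO. In cluster 15 the medians were close, at 0.996% and 1.02%. Clusters 3 (2.88% and 3.75%) and 6 (2.96% and 3.82%) had higher medians in Gsdme-KO. mt-Nd3 took a smaller part of the mitochondrial UMIs in all 4, with ratios against the other 12 genes of 0.726, 0.646, 0.647 and 0.546 in clusters 3, 6, 15 and 19.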
